A study of Mus musculus with 6 samples.

Results

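The 10 genes described here encode the main heat shock proteins of the cytosol and the mitochondrial matrix. They are Hspa1a, Hspa1b and Hspa8 of the HSP70 family, their relative Hsph1, the co-chaperone Dnajb1, the small heat shock protein gene Hspb1, the cytosolic HSP90 genes Hsp90aa1 and Hsp90ab1, and the mitochondrial chaperonin pair Hspd1 and Hspe1. They were taken by name from a count table of 22488 genes, and Hsp90aa1 and Hsp90ab1, whose symbols fill the whole name field, were checked by their Entrez identifiers. All 10 had a row. RNA of whole livers was sequenced from male wild-type C57BL/6 mice that were 6 to 8 weeks old. Every mouse was fasted for 16 h and received an intraperitoneal injection, of 200 µl of the salt buffer HBSS in the control group (3 libraries) and of lipopolysaccharide (LPS, an outer membrane component of Gram-negative bacteria) in the LPS group (3 libraries, dosed at 6 mg/kg). Another label field of the controls reads as untreated, and the sources used here do not give the time between injection and sampling. Both groups share the fast, and no fed liver was compared.

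Heat shock proteins are chaperones that bind unfolded proteins, keep them from aggregating and help them reach their folded state. HSP70 proteins bind short exposed stretches of a client, J-domain proteins such as Dnajb1 bring clients to them and trigger ATP hydrolysis, and HSP110 proteins such as Hsph1 release the nucleotide so that the cycle can start again. HSP90 acts later, on kinases and steroid receptors among others, and the HSP60 and HSP10 proteins made from Hspd1 and Hspe1 form the folding chamber of the mitochondrial matrix. Many of these genes are transcribed through heat shock factor 1 (HSF1), which binds heat shock elements, inverted repeats of a short unit, in their promoters.

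RefSeq promoter windows of GRCm38.p6, which run from 250 bases before to 50 bases after a gene's start, were matched for 7 of the 10 genes. Hspa8, Hsp90aa1 and Hsp90ab1 had no entry. The 250 bases upstream of the inducible HSP70 pair are shown because these genes had the lowest levels per length of the 10 with LPS and their sequences are nearly the same. Capitals mark each match to a 2-unit heat shock element, searched as GAANNTTC and as TTCNNGAA. In the second pattern the 2 units stand in the opposite order, and each pattern reads the same on either strand. Such a match occurred in 4946 of 32851 windows, or 15.1% of all, so it is common.
Hspa1a, chr17:34972157-34972406, minus strand: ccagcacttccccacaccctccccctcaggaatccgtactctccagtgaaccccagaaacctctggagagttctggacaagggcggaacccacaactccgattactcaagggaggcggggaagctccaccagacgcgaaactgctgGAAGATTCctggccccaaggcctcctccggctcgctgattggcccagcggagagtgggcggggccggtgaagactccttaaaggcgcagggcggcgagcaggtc
Hspa1b, chr17:34959239-34959488, minus strand: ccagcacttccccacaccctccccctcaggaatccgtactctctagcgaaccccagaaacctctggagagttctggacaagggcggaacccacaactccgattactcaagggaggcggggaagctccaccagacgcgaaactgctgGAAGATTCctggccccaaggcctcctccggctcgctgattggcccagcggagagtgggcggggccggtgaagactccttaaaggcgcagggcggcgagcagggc
Hspb1, chr5:135887772-135887859, plus strand: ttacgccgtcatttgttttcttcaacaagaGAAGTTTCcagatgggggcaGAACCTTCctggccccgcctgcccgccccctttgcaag
Hsph1, chr5:149636351-149636380, minus strand: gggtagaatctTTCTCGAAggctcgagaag
Hspe1, chr1:55088053-55088082, plus strand: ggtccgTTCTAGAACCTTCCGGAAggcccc
The windows of Hspa1a and Hspa1b differed at 4 of 300 bases, 3 of them among the 250 upstream bases, and each held 1 match, starting 104 bases before the start. Hspb1 held 2 matches, at 117 and 97 bases before its start. The Hsph1 window of the outer start held 3, of which the upstream match is shown, 33 bases before the start. Hspe1 held 3 overlapping matches, 89, 84 and 79 bases before its start. Because Hspd1 and Hspe1 lie head to head, the same stretch falls, on the other strand, 144 to 134 bases before the inner of the annotated Hspd1 starts, and the window of the outer start held 0 matches. A longer element of 3 alternating units was found in 0.60% of all windows (198), and among these genes in those of Hsph1, Hspd1 and Hspe1. In Hspd1 and Hspe1 it lay upstream. In Hsph1 it began past the start, at base 37 counted from the outer start, outside the stretch shown. Both Dnajb1 windows held 0 matches, which says only that these letters are not there. A match is a description of the sequence, not a bound site.

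Levels are given as CPM, read counts scaled to a common library size. A log2 fold change is the LPS level relative to control, given with its standard error (SE), and p values are from edgeR's quasi-likelihood test, adjusted over all genes tested. Library totals ran from 11488525 to 20282004 counts, with 13756 to 14402 genes detected. Of 12078 genes left after low counts were removed, 62.3% differed between the groups at an adjusted p under 0.05, 31.3% being higher and 31.0% lower with LPS, so a single call is common in these data. The median log2 fold change of all genes tested was 0.01. Among the 1228 tested genes with a mean of at least 100 CPM, 577 were lower and 377 higher. Hepatocyte markers held 112006 to 125458 CPM in controls and 72932 to 98959 CPM with LPS, and 0 of these 10 markers was absent.

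Of the 8 cytosolic genes among the 10, 7 were lower in the LPS livers, beside 31.0% of all genes tested. Among these 7, Hspa1a passed the filter on low counts through the controls. Hspe1 fell slightly, and Hspd1 and Hsp90aa1 did not pass the test. Of the 10 genes, 8 were lower with LPS and 0 were higher, against the 31.0% of tested genes called lower. With DESeq2 the counts were also 8 and 0. All 10 log2 fold changes were negative, so 0 genes could be higher at an unadjusted p under 0.05. In 8 genes every LPS library lay below every control library, which held for 33.4% of genes tested, and the opposite order held for 34.0%. The median log2 fold change of the 10 was -1.34. Summed over the 10 genes, the 3 controls held 3788, 3616 and 4212 CPM and the 3 LPS livers 1729, 1843 and 2158 CPM, a mean of 49.3% of control. In RNA of whole liver, a loss of cells of a type and less RNA per cell cannot be told apart.

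**Figure D1:**
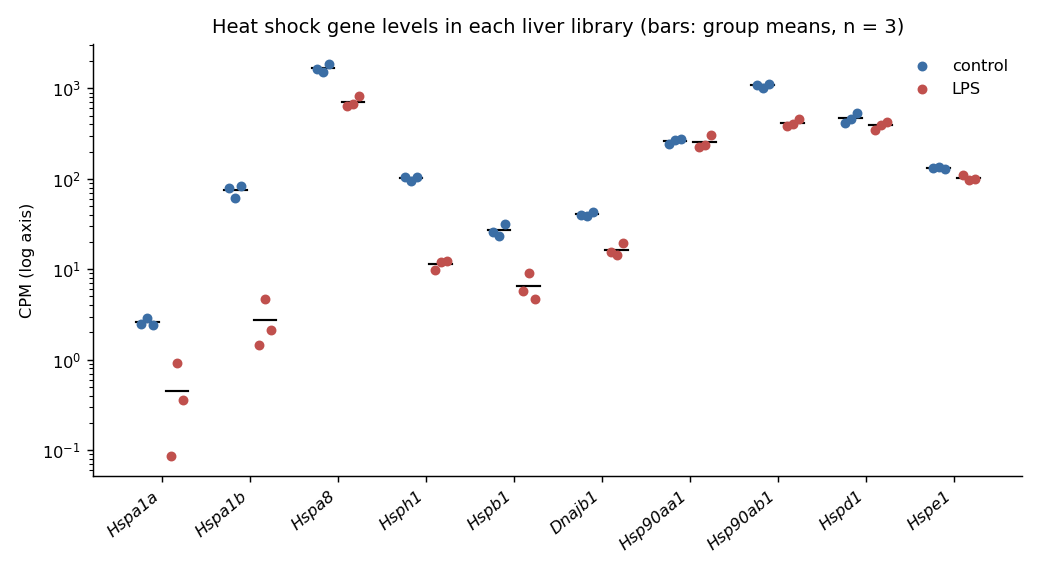
Level of each of the 10 heat shock genes in each library, in CPM on a log axis, with control libraries in blue, LPS libraries in red and bars at the group means (n = 3). The LPS points of Hsp90aa1 and Hspd1 overlap the control points, and those of the other 8 genes lie wholly below them.

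Of the 10 genes, Hspa1b had the lowest fold. Hspa1b (chromosome 17, 34956429 to 34959238 in mm10), an intronless gene that makes a stress-induced HSP70, had 80.1, 61.9 and 82.5 CPM in controls and 1.45, 4.64 and 2.14 CPM with LPS. Every LPS library lay far below every control, and LPS replicate 2 was the highest of its group. It changed by -4.74 on the log2 scale (SE 0.28, adjusted p = 6.438e-09), or 26.7-fold lower, and -5.35 without LPS replicate 2. From the lowest fold upward it ranked 43 of 12078 genes. In reads, 1027, 1273 and 1286 counts in controls stood against 17, 66 and 30 with LPS.

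Hspa1a (chromosome 17, 34969359 to 34972156), the neighbouring gene that encodes a nearly identical protein, was counted far more thinly. Controls had 32, 59 and 38 counts (2.50, 2.87 and 2.44 CPM), and LPS livers had 1, 13 and 5 counts (0.0853, 0.914 and 0.356 CPM). The groups did not overlap, and 13 of the LPS counts came from replicate 2. The log2 fold change was -2.46 (SE 0.57, adjusted p = 0.00203, 95% interval -3.70 to -1.23), and -3.45 without LPS replicate 2. The gene passed the filter on low counts through the controls, since 1 of 3 LPS libraries reached the filter's level of 0.684 CPM, and a gene this thin in LPS livers enters the test only where controls are higher. Leaving it aside, 7 of the other 9 genes were lower. Exons of Hspa1a overlap those of the protein-coding gene Gm20481 by 564 bases on the opposite strand. Whether counting used the strand is not in the sources used here.

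The counts of Hspa1a and Hspa1b cannot be separated with confidence. Of the 50-base words of the Hspa1a transcript, 58.8% also occur in Hspa1b, and 62.3% of those of Hspa1b occur in Hspa1a. How reads that match both were assigned is not in the sources used here. The difference between their fold changes was therefore not tested. Summed, the pair had 77.4 ± 10.998 CPM in controls and 3.20 ± 2.10 CPM with LPS (SD, n = 3), which is 4.13% of control. With the reads of both joined before the fit, the log2 fold change was -4.57 (SE 0.29, adjusted p = 1.569e-08).

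Hspa8 (chromosome 9, 40801276 to 40805202), the constitutive HSP70 that serves folding and clathrin uncoating in unstressed cells, had the highest level of the 10, also per length. It had 1642, 1510 and 1878 CPM in controls and 634, 667 and 829 CPM with LPS. The groups were clearly apart, with LPS replicate 3 the highest of its group. Its change was -1.24 on the log2 scale (SE 0.15, adjusted p = 7.068e-06), leaving 42.4% of control. Of its transcript's 50-base words, 51.4% occur in other genes, chiefly the copy Gm15459 (45.3%), which has no row in the table. Hspa8 exons also overlap the snoRNA genes Snord14c, Snord14d and Snord14e on the same strand, by 86 to 90 bases each.

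Within the HSP70 group, the inducible genes were scarcer relative to the constitutive gene in every LPS library. The log2 ratio of Hspa1a plus Hspa1b counts to Hspa8 counts was -4.31, -4.54 and -4.47 in controls and -8.69, -6.91 and -8.38 with LPS. The means were -4.44 ± 0.12 and -7.99 ± 0.95 (SD, n = 3), and all LPS values lay below all control values. A 2-sided exact permutation test gave p = 0.1, the smallest that 3 against 3 libraries can give, or 0.15 adjusted over the 3 ratios computed. The difference of -3.55 became -4.09 without LPS replicate 2.

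Hsph1 and Dnajb1, which act in the HSP70 cycle, fell as well. Hsph1 (chromosome 5, 149616843 to 149636498), the HSP110 that acts as nucleotide exchange factor and disaggregase partner, had 106, 93.4 and 105 CPM in controls and 9.89, 12.1 and 12.3 CPM with LPS. Its libraries were tight within each group and far apart between them. This was a log2 change of -3.15 (SE 0.14, adjusted p = 5.160e-10), or 8.85-fold lower, and ranked 237 of 12078 from the lowest fold. No 50-base word of its transcript occurred in another gene (0.0%).

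Dnajb1 (chromosome 8, 83608175 to 83612653), the J-domain partner that delivers clients to HSP70, had 39.8, 38.9 and 43.1 CPM in controls and 15.7, 14.2 and 19.6 CPM with LPS. The groups did not overlap. Dnajb1 changed by -1.30 on the log2 scale (SE 0.14, adjusted p = 3.652e-06), with 0.4% of its words shared. Hspb1 (chromosome 5, 135887919 to 135889563), a small heat shock protein that holds unfolded clients without ATP, had 25.6, 23.4 and 31.7 CPM in controls and 5.71, 9.0 and 4.63 CPM with LPS. All LPS libraries were under all controls, and replicate 2 was again the highest LPS library. Its log2 fold change was -2.05 (SE 0.23, adjusted p = 3.314e-06), and 51.6% of its words occur in the pseudogene Hsp25-ps1, which has no row in the table.

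The HSP90 pair parted. Hsp90ab1 (chromosome 17, 45567778 to 45573261), the constitutive cytosolic HSP90, had 1099, 1016 and 1131 CPM in controls and 380, 403 and 456 CPM with LPS. The groups did not overlap, and the log2 fold change was -1.39 (SE 0.13, adjusted p = 6.818e-07). Hsp90aa1 (chromosome 12, 110691036 to 110696395), the stress-inducible HSP90, had 244, 269 and 276 CPM in controls and 222, 239 and 308 CPM with LPS. Here the groups overlapped, and LPS replicate 3 was above all controls. Its log2 fold change was -0.03 (SE 0.14, adjusted p = 0.841, 95% interval -0.34 to 0.27), so the interval leaves out a change as large as that of Hsp90ab1.

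The share of Hsp90aa1 in the counts of the HSP90 pair was higher in every LPS library than in any control. It was 18.2%, 20.9% and 19.6% in controls and 36.9%, 37.2% and 40.3% with LPS, with means of 19.6% ± 1.39 and 38.2% ± 1.88 (SD, n = 3). The 2-sided exact permutation test of the 18.6-point difference gave p = 0.1, again the smallest possible, and 0.15 adjusted over the 3 ratios. The summed HSP90 level went from 1345 ± 61.5 to 670.0 ± 84.4 CPM. In the Hsp90aa1 transcript 58.5% of 50-base words occur in other genes, mostly Gm12346 (51.5%), against 4.5% for Hsp90ab1, so the level of Hsp90aa1 depends more on how shared reads were counted.

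The mitochondrial chaperonin genes changed least after Hsp90aa1. Hspd1 (chromosome 1, 55077833 to 55088243), which encodes the HSP60 ring, had 417, 464 and 533 CPM in controls and 350, 395 and 426 CPM with LPS. LPS replicate 3 exceeded the lowest control, so the groups overlapped. The log2 fold change was -0.27 (SE 0.14, adjusted p = 0.0949, 95% interval -0.56 to 0.02). It passed the threshold when libraries were scaled to their totals (-0.35, adjusted p = 0.0290) and without control replicate 1 (-0.36, adjusted p = 0.0448). Of the 50-base words of the Hspd1 transcript, 44.8% occur in other genes, chiefly Hspd1-ps3 (42.8%), against 8.2% for Hspe1. The level of Hspd1 therefore depends more on how shared reads were counted.

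Hspe1 (chromosome 1, 55088148 to 55091317), which encodes the HSP10 lid of that ring, had 133, 136 and 129 CPM in controls and 109, 97.4 and 100.02 CPM with LPS. The groups did not overlap, and the fall was small, at -0.38 on the log2 scale (SE 0.11, adjusted p = 0.0112). The call was lost without LPS replicate 2 (-0.34, adjusted p = 0.0504). Hspd1 and Hspe1 overlap by 112 exon bases on opposite strands, and whether counting used the strand is not in the sources used here. Their log2 ratio, Hspd1 over Hspe1, was 1.65, 1.77 and 2.05 in controls and 1.68, 2.02 and 2.09 with LPS. These values overlapped, and the exact permutation test of the difference of 0.11 gave p = 0.6 (0.6 adjusted over the 3 ratios).

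**Figure D2:**
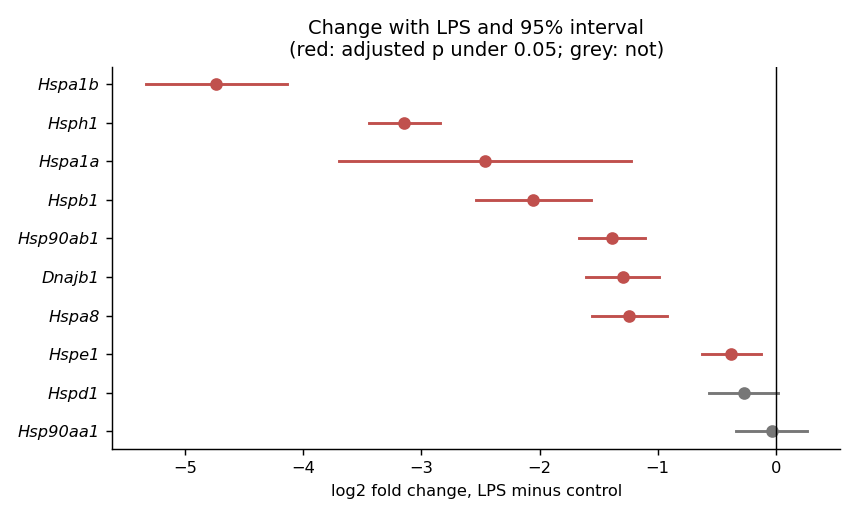
Log2 fold change (LPS minus control) of each gene with its 95% interval from the edgeR fit, ordered by size, in red where the adjusted p is under 0.05. Hspa1b stands lowest at -4.74, the intervals of Hsp90aa1 and Hspd1 include 0, and Hspa1a has the widest interval.

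**Figure D3:**
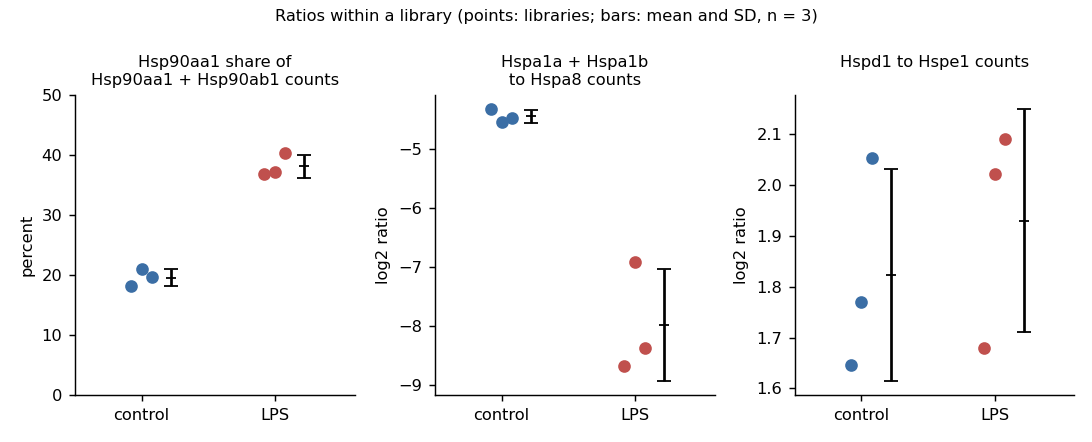
Ratios of counts within a library for 3 controls (blue) and 3 LPS livers (red), with bars for mean and SD. The Hsp90aa1 share of the HSP90 pair (percent) and the ratio of inducible to constitutive HSP70 (log2) are apart between groups, and the Hspd1 to Hspe1 ratio (log2) overlaps.

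Because longer transcripts gather more reads, the levels of the 10 genes were ordered per kilobase of annotated exon. In controls the order was Hspa8 (700 CPM per kb), Hsp90ab1 (429), Hspd1 (195), Hspe1 (171), Hsp90aa1 (77.8), Hspa1b (26.7), Hspb1 (26.1), Hsph1 (24.0), Dnajb1 (12.7) and Hspa1a (0.877). Neighbours overlapped between libraries for Hspd1 with Hspe1, Hspa1b with Hspb1 and Hspb1 with Hsph1, and their order is not resolved. With LPS the order began Hspa8 (297 CPM per kb), Hsp90ab1 (164), Hspd1 (161), Hspe1 (132) and Hsp90aa1 (75.9). It went on with Hspb1 (6.26), Dnajb1 (5.15), Hsph1 (2.70), Hspa1b (0.979) and Hspa1a (0.152). Hsp90ab1 overlapped Hspd1 there, and Hspb1 overlapped Dnajb1. The same 5 genes stood highest in both groups, while Hspa1b and Hsph1 were above Dnajb1 in controls and below it with LPS. Between Hsp90aa1 and the next gene lay a wider gap with LPS than in controls. Both orders also depend on how reads of shared sequence were counted, which is not in the sources used here. The share of 50-base words found in other genes ran from 0.0% (Hsph1) to 62.3% (Hspa1b).

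The factors that control the heat shock response were mostly not called at the RNA level. Of 5 tested genes for heat shock factors and HSF-binding proteins, 1 was lower and 0 higher, beside 31.0% and 31.3% of all genes. The count of higher genes was also 0 at an unadjusted p under 0.05, and was 1 without LPS replicate 2. The median log2 fold change of the 5 was -0.24. Hsf2, a factor of development and proteotoxic stress, was the lower gene, from 9.07 ± 1.33 to 4.37 ± 1.69 CPM (-1.07, SE 0.28, adjusted p = 0.00429). Hsf1, the main heat-responsive factor, had 11.1 ± 1.02 and 15.2 ± 4.98 CPM (0.45, SE 0.22, adjusted p = 0.0898), and its groups overlapped. The activity of HSF1 protein is set mainly after translation, and RNA counts do not measure it. Hsbp1, the gene of the list with the most counts (not adjusted for length), encodes a protein that binds HSF1 and had a log2 fold change of -0.10.

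Relatives of the HSP70 and J-domain genes went both ways. Among 6 other HSP70 and HSP110 genes, 2 were higher and 1 lower, beside 31.3% and 31.0% of all genes. Their median log2 fold change was -0.06. Hspa14, a ribosome-associated HSP70, rose from 7.21 ± 1.05 to 18.4 ± 1.69 CPM (1.36), and Hspa2, an HSP70 best known from germ cells, rose from 1.72 ± 0.83 to 6.70 ± 1.604 CPM (1.92). Hspa4l, an HSP110 like Hsph1, fell by 1.39 on the log2 scale, and Hspa4, with the most counts of this list, had 143 CPM in both groups (0.00). Among 13 other J-domain genes, 3 were higher and 3 lower, beside 31.3% and 31.0% of all genes, with a median of 0.18. The other 7 were not called.

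Dnaja1, a cytosolic J-domain protein that works with Hspa8 and HSP90, had 228, 240 and 278 CPM in controls and 80.0, 71.8 and 70.0 CPM with LPS. Its groups were far apart (-1.75, SE 0.13, adjusted p = 5.798e-08). Dnajb4, the closest relative of Dnajb1 named here, fell by 1.82 on the log2 scale, from 61.0 ± 1.30 to 17.2 ± 2.88 CPM. Dnajb6, which keeps aggregation-prone proteins soluble, and Dnajc5, a J-domain protein of vesicles, rose (0.82 and 0.88). The J-domain list therefore did not move together.

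HSP90 co-chaperones were mostly lower. Of 13 tested, 7 were lower and 2 higher, beside 31.0% and 31.3% of all genes, with a median log2 fold change of -0.53. Fkbp4, an immunophilin that helps steroid receptors mature on HSP90, had 131, 125 and 125 CPM in controls and 7.85, 8.30 and 10.1 CPM with LPS. Its change of -3.86 on the log2 scale (SE 0.14, adjusted p = 1.024e-10) stands beside the -3.15 of Hsph1. Fkbp5, its relative that opposes it on the glucocorticoid receptor, rose from 59.4 ± 15.01 to 182 ± 22.6 CPM (1.62, adjusted p = 1.920e-06). Chordc1, a heat-inducible HSP90-binding protein, fell by 1.86, and Sugt1, which links HSP90 to innate immune receptors, rose slightly (0.41). The lower genes also held Cdc37, the adaptor for kinase clients (-1.57), and Stip1, which joins HSP70 to HSP90 (-1.25).

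The list of HSP70 nucleotide exchange and co-chaperone genes and that of small heat shock genes held members that rose and members that fell. Of 9 genes in the first list, 2 were higher and 3 lower, beside 31.3% and 31.0% of all genes, with a median of -0.23. Bag3, which links HSP70 and small heat shock proteins to selective autophagy, had 53.3, 37.2 and 44.8 CPM in controls and 94.3, 94.4 and 97.5 CPM with LPS (1.08, SE 0.14, adjusted p = 1.352e-05). Bag5 rose (0.63), while Bag4 and St13, which stabilises HSP70 with bound client, fell (-1.16 and -0.68). The small heat shock gene Hspb8, whose protein binds Bag3, had 166, 168 and 192 CPM in controls and 402, 406 and 531 CPM with LPS (1.35, SE 0.14, adjusted p = 2.044e-06). It moved opposite to Hspb1. Hspb6, a small heat shock protein of muscle, fell from 16.97 ± 2.31 to 8.45 ± 0.449 CPM. Of the 7 listed genes 3 were tested, and Hspb3 and Cryaa had 0 counts in all libraries.

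Most other mitochondrial chaperones and proteases fell. Of 14 tested, 11 were lower and 1 higher, beside 31.0% and 31.3% of all genes, with a median log2 fold change of -0.51. Hscb, 1 of the 11, reached the level of the low-count filter in 1 of 3 LPS libraries and so was tested through its controls, and without it 10 of 13 were lower. Hspa9, the mitochondrial HSP70 that pulls proteins through the import pore, went from 632 ± 40.8 to 476 ± 19.97 CPM (-0.41), beside -0.38 for Hspe1. Trap1, the mitochondrial HSP90, fell by 0.93 on the log2 scale, and Spg7, a subunit of an inner membrane protease, fell by 0.96. Yme1l1, another inner membrane protease, was the higher gene (0.32, adjusted p = 0.0483), a call lost in 9 of 11 alternative fits. The cytosolic chaperonin TRiC and its partner prefoldin were mixed. Of their 13 genes, 5 were lower and 3 higher, beside 31.0% and 31.3% of all genes, with a median of -0.24. Among them Cct4 (-1.28) and Tcp1 (-0.88) of the TRiC ring fell, and Vbp1 (1.09) and Pfdn2 (0.60) of prefoldin rose. Cct3, with the highest CPM before any adjustment for length, had 145 ± 10.5 and 123 ± 5.74 CPM. With libraries scaled to their totals, 8 of the 13 were lower.

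A further list held 14 genes known to be induced by heat, some of which are also in the lists above. Of these 14, 7 were lower and 4 higher, beside 31.0% and 31.3% of all genes, with a median of -0.61. Fkbp4 and Dnaja1 had the smallest adjusted p among those that fell, and Hspb8 and Bag3 among those that rose. Ubb, a polyubiquitin gene with the most counts of them, rose from 387 ± 18.9 to 574 ± 124 CPM (0.57). The genes of this list therefore did not move as a block in these livers.

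**Figure D4:**
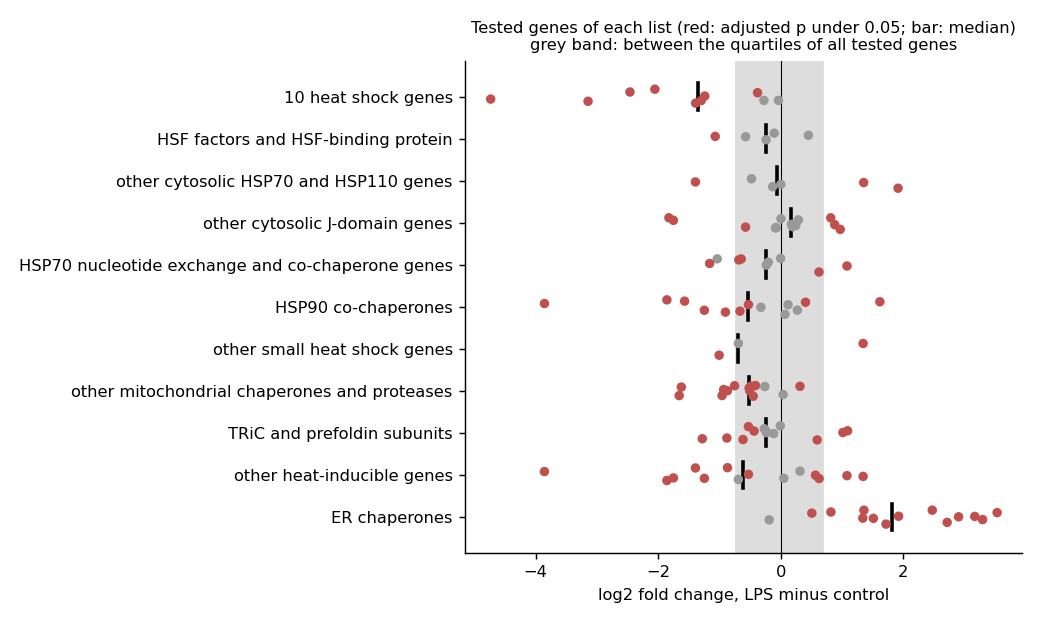
Log2 fold changes (LPS minus control) of the tested genes of each list, red where the adjusted p is under 0.05, with a bar at each list's median and a grey band between the quartiles of all tested genes. The 10 heat shock genes have a median of -1.34, ER chaperones one of 1.83, and most other lists have medians inside the band.

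Chaperones of the endoplasmic reticulum, which fold secreted proteins and are under the unfolded protein response, went the opposite way. Of 14 tested, 13 were higher and 0 lower, beside 31.3% and 31.0% of all genes, with a median log2 fold change of 1.83. The count of lower genes was also 0 at an unadjusted p under 0.05 and by DESeq2. Hspa5, the HSP70 of that compartment, had 949, 684 and 1014 CPM in controls and 6625, 7993 and 5256 CPM with LPS (2.91, SE 0.20, adjusted p = 2.802e-08). All LPS libraries of Hspa5 were far above all controls, with replicate 3 the lowest of them. Creld2 (3.54) and Manf (3.3), small luminal proteins induced by unfolded proteins, had the smallest adjusted p of the list. Canx, a membrane-bound lectin chaperone, was the gene not called (-0.19, adjusted p = 0.220). Summed, the 14 genes went from 3283 ± 425 to 14709 ± 2584 CPM, a 4.48-fold higher mean, while the 10 cytosolic and mitochondrial genes went from 3872 ± 307 to 1910 ± 222 CPM.

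**Figure D5:**
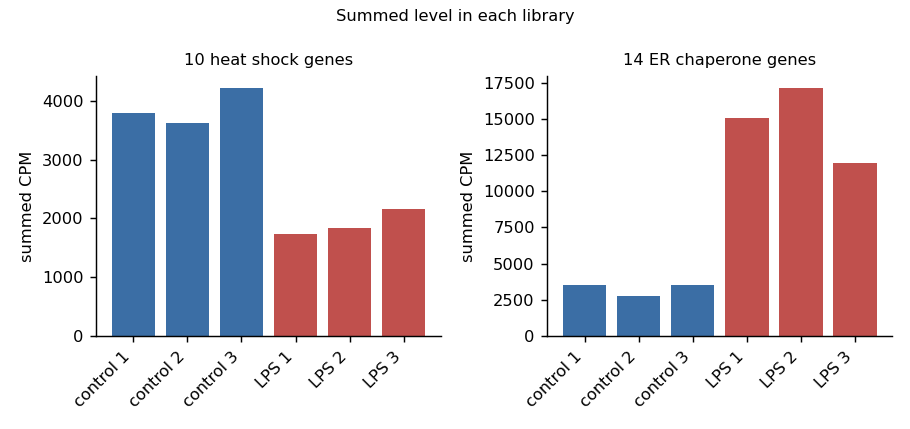
Summed CPM of the 10 cytosolic and mitochondrial heat shock genes and of the 14 ER chaperone genes in each library, on linear axes from 0. The first sum is lower in every LPS library (1729 to 2158) than in every control (3616 to 4212), and the second is higher (11973 to 17108 against 2792 to 3541).

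The cell types and handling signs that moved alongside were as follows. Beside all counts given here, 31.3% of all genes tested were higher and 31.0% lower. Neutrophil markers were higher in 7 of 7 tested genes, from a sum of 4.21 to 7.83 CPM in controls to 198 to 239 CPM with LPS, and monocyte markers in 5 of 6, from 5.15 to 9.92 up to 63.2 to 77.0 CPM. Kupffer cell markers were lower in 6 and higher in 1 of 7, and their sum went from 244 to 263 down to 52.3 to 85.3 CPM. Hepatocyte markers were lower in 7 and higher in 2 of 10, with a median of -0.53. Of the other markers, those of sinusoidal endothelium were higher in 1 and lower in 4 of 7, of stellate cells in 1 and 4 of 7, of cholangiocytes in 3 and 1 of 4, of erythroid cells in 2 and 1 of 5, of B cells in 0 and 2 of 5, and of T and NK cells in 1 and 0 of 4. Many of these markers reached the filter's level in at most 1 library of their lower group (4 of 7 neutrophil, 4 of 6 monocyte, 3 of 4 T and NK cell, 4 of 5 B cell and 1 of 4 cholangiocyte markers), so their counts among tested genes are partly set by the filter. In all marker lists 0 genes were at 0 in every library. Immediate early genes, which also respond to tissue handling, were higher in 5 of 9 tested. They summed to 190 to 296 CPM in controls and 618 to 724 CPM with LPS. Of them, Btg2 (mean 16.9 to 215 CPM) and Junb (21.4 to 202 CPM) rose most, while Fos, Jun, Egr1 and Nr4a1 were not called. The part of cell makeup and handling in the heat shock results was not tested, and mitochondrially encoded genes were not analysed here.

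The genes whose log2 CPM most resembled that of Hspa1a plus Hspa1b over the 6 libraries were Emc10 (Pearson r = 0.999), Tmem184b (0.998), Mertk (0.998), Mtif3 (0.998) and Pdk1 (0.998). All 5 fell with LPS, by log2 fold changes of -0.95, -0.70, -1.89, -0.83 and -2.13 in that order. The 6 points form the control and LPS groups and share their libraries, so these coefficients describe mainly the step between the groups.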

How the data were processed

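Total RNA of whole liver was extracted with Trizol, per the labels. For each of 6 libraries the authors deposited a table of raw read counts, which are whole numbers and not normalized. The submitters' processing notes name bcl2fastq 2.0, HISAT2, StringTie, DESeq2, limma and the mm10 build. The counting tool, annotation, strand setting and treatment of multiply mapped reads are not given in the sources used here. Of 22488 rows, 20722 were named by Entrez identifier (98.99% of counts), 879 by a complete symbol and 887 as deposited. 0 value columns were left unused.

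Counts were compared in R 4.3.3 with edgeR 4.0.16 (TMM scaling, filterByExpr with minimum count 10 and minimum total 15 in 3 samples, quasi-likelihood F test, 2-sided, Benjamini-Hochberg over 12078 genes, threshold 0.05). The method was tested on simulated data. The biological coefficient of variation was 16.4%. Libraries of a group differed by more than counting noise (chi-square per degree of freedom 11.6 to 31.2). Whether each library is a separate mouse is not stated, and p values reflect only the spread among these 6 samples, which may be technical. Ratios were tested with scipy 1.17.1 (Python 3.11.15). Exon lengths and shared 50-base words came from GENCODE (GRCm38).

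The 10 genes, the lists and the tests were chosen with earlier results of these data known. Named genes are the 10 and, in each list, the 2 called genes with the smallest adjusted p in each direction. The gene with the highest mean CPM of each list is also named. So are the 5 genes most like the Hspa1a and Hspa1b sum (log2 CPM, prior count 2 for the genes and none for the sum). Hsf1, Cdc37, Stip1, Canx, Hspb3, Cryaa, Hscb, Btg2, Junb, Fos, Jun, Egr1 and Nr4a1 were named after their values were seen. Alternatives were DESeq2 1.42.0 size factors, library totals, no filter, the DESeq2 Wald test, a replicate block, each library left out, Hspa1a and Hspa1b summed, and group medians for the ratios.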

Additional observations from a re-analysis of the deposited data

How the results depend on the processing

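Under the 11 alternative fits, 7 to 9 of the 10 heat shock genes were lower with LPS and 0 higher. Library totals, and leaving out control replicate 1, added Hspd1, and leaving out LPS replicate 2 removed Hspe1. The log2 fold change of Hsp90aa1, which was not called, changed sign to 0.04 without LPS replicate 1 and 0.02 without LPS replicate 2, and ran from -0.18 to 0.04 with 1 library left out, so it has no settled direction. Hspa1a ran from -3.45 to -2.04 and Hspa1b from -5.35 to -4.47 with 1 library left out. Among the lists, LPS replicate 1 left out gave 2 lower small heat shock genes in place of 1. The replicate number shared by the titles gave no clear pairing. Deviations of same-numbered libraries correlated at -7.448e-04, 0.104 and 0.0352, and others at -0.121 to 0.0741. With 3 libraries per group, these values cannot show whether same-numbered libraries shared a batch or day. A fit with the replicate number as a block called 3780 genes higher and 3766 lower. It called 8 of the 10 genes lower, with Hspa1b at -4.76 and Hsph1 at -3.15. The thin counts of Hspa1a with LPS (1 to 13) limit its fold change, and shared sequence limits the split between it and Hspa1b.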

Other observations

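A pair of RNA-binding proteins that are known to be induced by mild cold was looked at after the values were seen. Cirbp had 26.0, 24.0 and 21.7 CPM in controls and 61.5, 75.6 and 61.9 CPM with LPS, a log2 fold change of 1.47 (SE 0.13, edgeR adjusted p = 4.898e-07). Rbm3 had 37.7, 31.4 and 37.1 CPM in controls and 67.3, 66.8 and 82.4 CPM with LPS, a log2 fold change of 1.03 (SE 0.13, edgeR adjusted p = 1.559e-05). In both genes every LPS library lay above every control library, as it did in 34.0% of genes tested.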
